A study of Homo sapiens with 6 samples.

Results

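The genes described here are the 10 that make serine, pass its carbon through folate and bring glycine into the cell: PHGDH, PSAT1, PSPH, SHMT1, SHMT2, MTHFD1, MTHFD2, MTHFD1L, ALDH1L2 and SLC6A9. They were taken by symbol from the 38557 genes listed in the count files, all 10 were found, and all 10 passed the filter on low counts. The cells were wild-type cardiomyocytes differentiated from an established line of human induced pluripotent stem cells, WTC11. The 2 backbone media compared were RPMI plus B27 (a serum-free supplement) and DMEM plus fatty acids, with 3 biological replicates each. The labels give neither the make-up of the media nor the time in them, and a single line was used, so p-values measure the spread between these cultures. RPMI plus B27 is the reference throughout, so a positive change is a higher level in DMEM plus fatty acids.

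Serine is made from the glycolytic intermediate 3-phosphoglycerate by PHGDH, PSAT1 and PSPH in turn. Serine hydroxymethyltransferase (SHMT1 in the cytosol, SHMT2 mainly in mitochondria) splits serine into glycine and a carbon unit carried by tetrahydrofolate. In mitochondria MTHFD2 oxidises this unit, MTHFD1L releases it as formate and ALDH1L2 can oxidise it to carbon dioxide. In the cytosol MTHFD1 carries the reactions that match those of MTHFD2 and MTHFD1L. The carbon units feed purine and thymidylate synthesis and methylation. ATF4, the transcription factor of the amino acid response, is known as an activator of several of these genes.

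In DMEM plus fatty acids, 3 of the 10 genes rose: SLC6A9, PSAT1 and SHMT2, by 6.13-, 4.04- and 2.41-fold (adjusted p under 0.05 over the 16107 genes tested, edgeR quasi-likelihood test). None fell. Among all genes tested, 0.292% passed upward and 1.36% in either direction. The 10 genes were chosen with earlier results of these data known, so such shares describe them and are no test of them as a group. In 6 of the 10 genes, those 3 with PHGDH, MTHFD2 and ALDH1L2, every library in DMEM plus fatty acids was above every library in RPMI plus B27, which held for 12.8% of all genes tested. The other 4, PSPH, SHMT1, MTHFD1 and MTHFD1L, overlapped between media. Libraries with the same replicate number deviated together, though the titles do not say what a shared number marks. With that number fitted as a block, 5 of the 10 passed upward, PHGDH and ALDH1L2 in addition (1.36% of all genes passed upward in that fit, 4.78% in either direction). The DESeq2 Wald test called 6 upward, MTHFD2 in addition, and 0 downward (2.47% of all genes upward). At an unadjusted p under 0.05 by edgeR these 6 were higher and 0 were lower, and 17.7% of all genes passed in either direction.

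The 6 libraries held 23232324 to 31035389 gene counts, and the 10 genes had 88 to 7768 counts in a library. Levels are CPM, that is, counts divided by the library's total and put on one scale with TMM factors. The 12 cardiomyocyte markers all had counts and summed to 30402 to 36315 CPM in RPMI plus B27 and 23939 to 34359 CPM in DMEM plus fatty acids. Within this sum single markers moved in both directions. Without overlap between media 1 was higher, MYH6 (3504 to 5653 against 6760 to 10620 CPM). In the same way 3 were lower: MYH7 (7544 to 13359 against 2493 to 6082 CPM), ACTN2 and TNNI1. Of all 16107 genes tested, 2059 were higher and 2061 lower in this way. The 12 fibroblast markers, all with counts, summed to 4341 to 8415 and 758.5 to 1959 CPM, most of it from the collagens COL1A1, COL1A2 and COL3A1. Of these 12, 10 were lower without overlap between media, while DDR2 overlapped. The 6 smooth muscle markers summed to 1604 to 2040 and 356.6 to 1176 CPM. The 8 epicardial markers summed to 1972 to 2394 and 882.3 to 1097 CPM, nearly all of it from the keratins KRT8, KRT18 and KRT19. In any library TBX18 had at most 7.72 CPM, and WT1, UPK3B, ALDH1A2 and MSLN each had at most 0.942 CPM. Of the 6 endothelial markers, KDR held nearly all of the sum, at 27.5 to 238.9 and 114.5 to 463.2 CPM, and the other 5, PECAM1, CDH5, TIE1, TEK and VWF, together had 0.970 to 2.60 and 0.474 to 0.775 CPM. The 7 pluripotent markers summed to 27.7 to 68.5 and 31.5 to 70.1 CPM, most of it from TDGF1 and DNMT3B. POU5F1, NANOG, LIN28A, DPPA4 and ZFP42 each had at most 0.904 CPM in any library. The 7 hepatic markers summed to 15.6 to 311.6 and 7.66 to 49.2 CPM. The highest of these sums, in RPMI plus B27 replicate 3, was mostly SERPINA1 (196.7 CPM) and AFP (62.8 CPM). No marker of these lists was at 0 in all libraries. The summed fibroblast and smooth muscle markers and the keratins of the epicardial list thus moved with the medium, as did single cardiomyocyte markers in either direction. Their part in the results below was not tested. In bulk RNA, fewer cells of a type and less RNA per cell cannot be told apart.

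The stretches before the gene starts are shown because 6 of the genes were higher together in DMEM plus fatty acids. RefSeq (GRCh38.p14) gave start sites for 7 of the 10, all except PSPH, SHMT2 and ALDH1L2, and 4 windows for MTHFD1L. The 250 bases before each start were searched on both strands for TGATGNAA, the core of the response element of C/EBP and ATF factors, for CACGTG, the E-box of MYC and USF, and for CCAAT, the box of NF-Y. CCAAT was added after the sequences had been read. The matches do not overlap one another and are in capitals.

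PSAT1: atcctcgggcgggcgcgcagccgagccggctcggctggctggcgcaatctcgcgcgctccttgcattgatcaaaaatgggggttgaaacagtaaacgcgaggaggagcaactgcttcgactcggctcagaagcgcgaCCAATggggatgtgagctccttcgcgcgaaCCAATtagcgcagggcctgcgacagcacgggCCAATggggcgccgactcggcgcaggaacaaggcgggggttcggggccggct
MTHFD2: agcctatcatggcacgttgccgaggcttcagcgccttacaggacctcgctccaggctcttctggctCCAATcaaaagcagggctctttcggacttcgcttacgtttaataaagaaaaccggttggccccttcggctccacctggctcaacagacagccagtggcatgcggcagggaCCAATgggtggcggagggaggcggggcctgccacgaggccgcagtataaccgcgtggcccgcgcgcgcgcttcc
SLC6A9: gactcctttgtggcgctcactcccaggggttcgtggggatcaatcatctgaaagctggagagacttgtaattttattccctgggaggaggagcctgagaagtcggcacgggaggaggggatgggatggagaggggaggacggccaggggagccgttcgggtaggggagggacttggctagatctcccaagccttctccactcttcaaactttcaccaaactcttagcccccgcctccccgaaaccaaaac
MTHFD1L: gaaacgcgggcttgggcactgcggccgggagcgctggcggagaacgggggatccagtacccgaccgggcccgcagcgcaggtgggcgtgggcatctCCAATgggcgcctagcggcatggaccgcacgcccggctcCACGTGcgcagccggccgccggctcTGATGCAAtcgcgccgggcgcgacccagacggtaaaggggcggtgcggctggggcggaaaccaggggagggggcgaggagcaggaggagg

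These windows lie at chr9:78296875-78297124 (plus strand), chr2:74198365-74198614 (plus), chr1:44031463-44031712 (minus) and chr6:150866197-150866446 (plus). PSAT1 and MTHFD2, which were higher in DMEM plus fatty acids, hold CCAAT 3 times and 2 times, and SLC6A9, which had the largest fold change, holds none of the motifs. The MTHFD1L window holds all of them, CCAAT 154, CACGTG 115 and TGATGCAA 90 bases before the start, although MTHFD1L was not higher in DMEM plus fatty acids. Counted by gene, with a match in any of its windows, TGATGNAA was found in 1 of the 7 against 3.89% of all 27305 genes with a window, CACGTG in 2 (MTHFD1 and MTHFD1L) against 7.73%, and CCAAT in 6, all except SLC6A9, against 37.0%. Counted by window, TGATGNAA was in 2 of 10 against 3.14% of 35116, CACGTG in 3 against 6.34% and CCAAT in 8 against 32.0%, where the MTHFD1L windows with matches overlap one another. CCAAT was thus present in PSAT1, PHGDH and MTHFD2 and also in the cytosolic SHMT1 and MTHFD1, whose levels overlapped between media. Because CCAAT was picked after these windows had been read, its shares beside those of all genes are no test of an excess. A match is a run of letters and was not tied to binding in these data.

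The serine synthesis enzymes differed among themselves. PSAT1 (phosphoserine aminotransferase, the middle step, chr9:78297143-78330093) had 12.9, 14.3 and 23.5 CPM in RPMI plus B27 replicates 1 to 3 and 80.6, 43.2 and 81.0 CPM in DMEM plus fatty acids. The lowest library in DMEM plus fatty acids was 1.84 times the highest in RPMI plus B27. Its log2 fold change was 2.01 ± 0.32 (SE) with an adjusted p of 0.0405 (edgeR), and 0.0139 with the block.

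PHGDH (phosphoglycerate dehydrogenase, the committed step, chr1:119648411-119744226) had 64.9, 93.3 and 106.0 CPM in RPMI plus B27 and 165.7, 124.6 and 230.3 CPM in DMEM plus fatty acids. The media did not overlap, but 93.3 and 106.0 lay close to the 124.6 CPM of DMEM plus fatty acids replicate 2. Its log2 fold change was 0.98 ± 0.26 (edgeR adjusted p 0.124, and 0.0474 with the block). PSPH (phosphoserine phosphatase, the last step, chr7:56011051-56051604) had 22.4, 27.5 and 24.8 CPM in RPMI plus B27 and 25.8, 26.2 and 33.0 CPM in DMEM plus fatty acids. Its libraries overlapped, and its log2 fold change was 0.19 ± 0.16 (edgeR adjusted p 0.581).

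**Figure D1:**
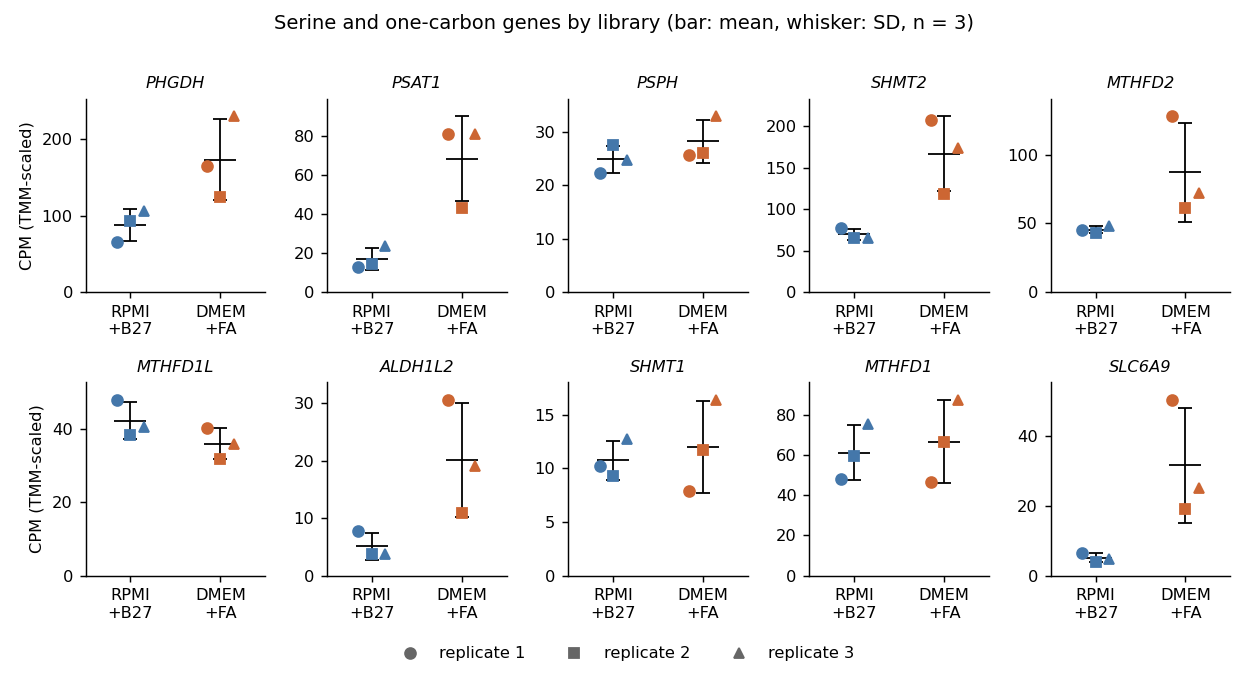
Level of each of the 10 genes in CPM (linear axis from 0, a scale for each gene) in the 3 libraries of RPMI plus B27 (blue) and the 3 of DMEM plus fatty acids (orange), with symbols for the replicate number, the mean as a bar and the SD as whiskers. PSAT1, PHGDH, SHMT2, MTHFD2, ALDH1L2 and SLC6A9 do not overlap between media, and replicate 2 is the lowest of the DMEM plus fatty acids libraries in all 6.

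Of the mitochondrial enzymes, SHMT2 (chr12:57229327-57234935) had 77.5, 65.6 and 64.9 CPM in RPMI plus B27 and 207.8, 118.7 and 174.1 CPM in DMEM plus fatty acids. All 3 libraries in DMEM plus fatty acids exceeded the highest in RPMI plus B27, by at least 1.53 times. The log2 fold change was 1.27 ± 0.21 (edgeR adjusted p 0.0427, and 0.0165 with the block). ALDH1L2 (mitochondrial formyltetrahydrofolate dehydrogenase, chr12:105019784-105084577) was low and had 7.76, 3.74 and 3.73 CPM against 30.5, 10.8 and 19.1 CPM. Its fold change was close to that of PSAT1, at 1.98 ± 0.45 on the log2 scale, with a wider spread between libraries (edgeR adjusted p 0.0864, and 0.0131 with the block).

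MTHFD2 (methylenetetrahydrofolate dehydrogenase and cyclohydrolase, chr2:74198562-74217565) had 45.2, 43.0 and 47.9 CPM in RPMI plus B27 and 128.3, 61.5 and 72.1 CPM in DMEM plus fatty acids. The narrow range in RPMI plus B27 contrasts with a high library, replicate 1, in DMEM plus fatty acids. Its log2 fold change was 0.94 ± 0.27 (edgeR adjusted p 0.138, and 0.0738 with the block), and 0.55 without that library. MTHFD1L (formate-releasing synthetase, chr6:150865549-151101887) had 47.9, 38.3 and 40.5 CPM against 40.1, 31.8 and 35.9 CPM. It was the only 1 of the 10 with a negative log2 fold change, -0.23 ± 0.15, and it overlapped between media (edgeR adjusted p 0.450). The single row whose symbol marks a pseudogene of a member, MTHFD2P1, had a count of 0 in all 6 libraries. This allows up to 3 counts, or 0.0967 to 0.129 CPM by library total, before TMM factors.

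The cytosolic enzymes showed no difference beyond their spread. MTHFD1 (the trifunctional cytosolic enzyme, chr14:64388031-64463457) had 48.3, 59.6 and 75.7 CPM in RPMI plus B27 and 46.4, 66.3 and 87.4 CPM in DMEM plus fatty acids. SHMT1 (chr17:18327860-18363563) had 10.2, 9.28 and 12.8 CPM against 7.88, 11.7 and 16.4 CPM. For both genes replicate 3 was the highest library of its medium, and the spread within a medium was larger than the difference between them. The log2 fold changes were 0.13 ± 0.26 for MTHFD1 and 0.16 ± 0.29 for SHMT1 (edgeR adjusted p 0.834 and 0.810), with either sign when single libraries were left out. Replicate 3 was also the highest library of its medium in the sum of 18 proliferation markers, all with counts, at 1620 CPM against 867.2 and 891.9 CPM in RPMI plus B27 and 1831 CPM against 551.0 and 660.7 CPM in DMEM plus fatty acids. The part of proliferating cells in these levels was not tested.

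SLC6A9 (the glycine transporter GlyT1 of the plasma membrane, chr1:43991500-44031467) had 6.52, 4.04 and 4.85 CPM in RPMI plus B27 and 50.4, 19.2 and 25.2 CPM in DMEM plus fatty acids. The lowest library in DMEM plus fatty acids was 2.95 times the highest in RPMI plus B27, the widest gap of the 10 genes. Its log2 fold change was 2.62 ± 0.39 (edgeR adjusted p 0.0397, and 0.00643 with the block). The calls of SLC6A9 and SHMT2 were lost when any 1 of the 6 libraries was left out (edgeR adjusted p 0.0606 to 0.121 and 0.0575 to 0.134), and that of PSAT1 in 5 of those 6 fits (0.0418 to 0.129, kept without RPMI plus B27 replicate 3). The log2 fold changes in those fits were 2.11 to 2.88, 1.07 to 1.46 and 1.85 to 2.33, and the calls over all genes were 3 to 131.

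**Figure D2:**
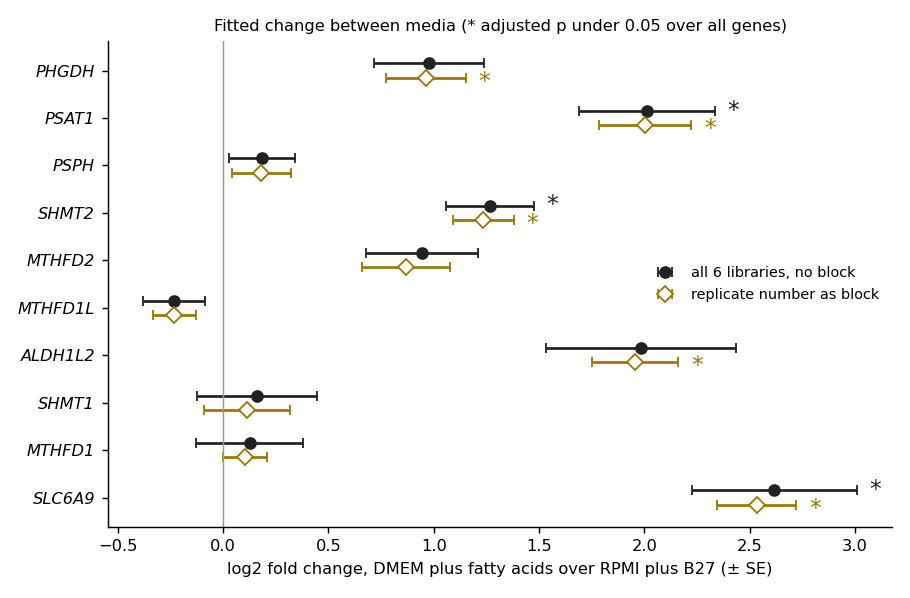
Fitted log2 fold change between media for each gene (above 0: higher in DMEM plus fatty acids), with its SE, from edgeR without a block (filled circles) and from the fit blocked by replicate number (open diamonds). Asterisks mark an adjusted p under 0.05 over all genes, for SLC6A9, PSAT1 and SHMT2 in both fits and for PHGDH and ALDH1L2 with the block alone.

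Same-numbered libraries of the 2 media were then compared. Each of the 6 genes that did not overlap is bound to be higher in DMEM plus fatty acids in every pair. Only the size of its ratios adds to that. Within replicates 1, 2 and 3 the log2 ratio between media was 2.95, 2.25 and 2.38 for SLC6A9 and 2.65, 1.59 and 1.79 for PSAT1. It was 1.98, 1.53 and 2.35 for ALDH1L2 and 1.42, 0.86 and 1.42 for SHMT2. It was 1.51, 0.52 and 0.59 for MTHFD2 and 1.35, 0.42 and 1.12 for PHGDH. Replicate 2 thus had the smallest ratio for all 6 genes. DMEM plus fatty acids replicate 2 also had the highest summed fibroblast markers (1959 CPM against 758.5 and 1810 CPM) and smooth muscle markers (1176 CPM against 477.7 and 356.6 CPM) of its medium. Replicates 1 and 3 of that medium differed in fibroblast markers, while their sums over the 10 genes were 783.6 and 774.3 CPM. The part of these markers in the smaller ratios was not tested. MTHFD1L was lower in DMEM plus fatty acids in all 3 pairs, by ratios of -0.26, -0.27 and -0.17, while PSPH, SHMT1 and MTHFD1 each had a pair of either sign.

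**Figure D3:**
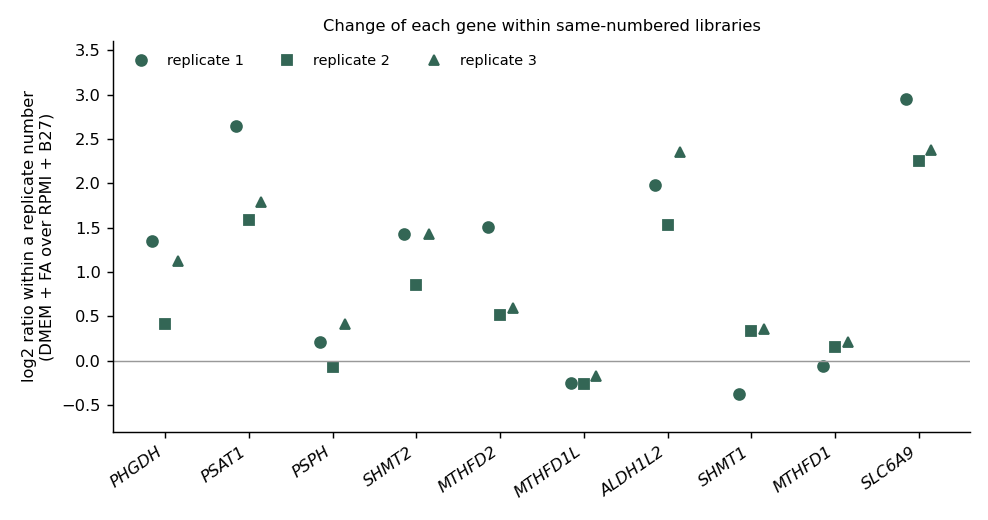
Log2 ratio of CPM between DMEM plus fatty acids and RPMI plus B27 libraries of the same replicate number, 3 points for each gene. All points of PHGDH, PSAT1, SHMT2, MTHFD2, ALDH1L2 and SLC6A9 lie above 0, as they must where the media do not overlap. The square of replicate 2 is the lowest of the 3 in each of these genes.

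Summed over the 10 genes, the level was 343.5, 358.7 and 404.7 CPM in RPMI plus B27 and 783.6, 514.0 and 774.3 CPM in DMEM plus fatty acids. The 4 mitochondrial enzymes together went from 162.0 ± 14.5 to 310.2 ± 92.4 CPM (SD, n = 3 each), while the cytosolic pair had 71.9 ± 15.2 and 78.7 ± 24.8 CPM. The counts of a mitochondrial enzyme were then set against those of its cytosolic counterpart within each library, which removes library scaling. SHMT2 made up 88.4%, 87.6% and 83.6% of SHMT1 plus SHMT2 counts in RPMI plus B27 and 96.3%, 91.0% and 91.4% in DMEM plus fatty acids. The share was higher in every DMEM plus fatty acids library, by 6.41 percentage points on average. The exact two-sided permutation p was 0.1, the smallest that 3 against 3 libraries allow, and 0.3 after adjustment over the 3 shares and ratios tested.

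MTHFD2 made up 48.4%, 41.9% and 38.8% of MTHFD2 plus MTHFD1 counts in RPMI plus B27 and 73.4%, 48.1% and 45.2% in DMEM plus fatty acids. These shares overlapped between media (exact permutation p 0.3), and the mean difference of 12.6 percentage points was 3.65 without DMEM plus fatty acids replicate 1. The log2 ratio of the 4 mitochondrial enzymes to the 2 cytosolic ones was 1.61, 1.13 and 0.83 in RPMI plus B27 and 2.91, 1.51 and 1.54 in DMEM plus fatty acids. It differed by 0.80 on average, less than the range within DMEM plus fatty acids (exact permutation p 0.3), and by 0.34 without DMEM plus fatty acids replicate 1. Within pairs all 3 measures were higher in DMEM plus fatty acids in 3 of 3 replicates, where an exact sign-flip test gives 0.25, its smallest p. For the SHMT2 share this follows from the lack of overlap between media.

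**Figure D4:**
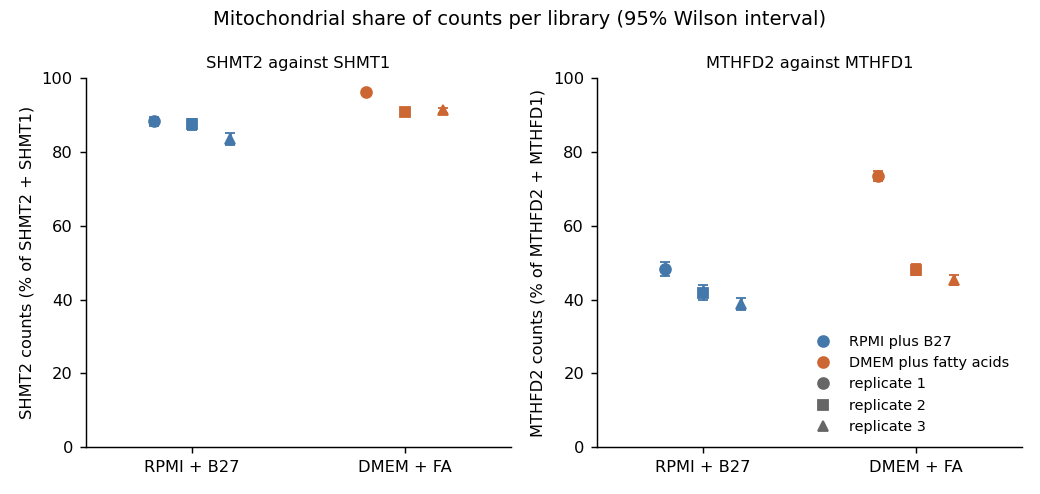
Percent of counts from SHMT2 among SHMT1 and SHMT2 (left) and from MTHFD2 among MTHFD2 and MTHFD1 (right) in each library, with 95% Wilson intervals that cover counting error only. The SHMT2 share is 83.6% to 88.4% in RPMI plus B27 and 91.0% to 96.3% in DMEM plus fatty acids, while the MTHFD2 shares of the media overlap.

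To order the genes by level, CPM was divided by the merged exon length in GENCODE release 29, 2.18 kb for PSPH to 7.55 kb for ALDH1L2. The annotation behind the counts is not given in the sources used here, so these lengths are approximate. In RPMI plus B27, PHGDH (33.1 ± 7.91 CPM per kb) and SHMT2 (22.9 ± 2.34 CPM per kb) were highest and overlapped each other. A middle group followed, PSPH (11.4), MTHFD1L (11.0), MTHFD2 (10.2), MTHFD1 (8.86) and PSAT1 (7.73 CPM per kb), in which each gene overlapped its neighbours. SHMT1 (3.81 ± 0.638), then SLC6A9 (1.19 ± 0.293) and ALDH1L2 (0.673 ± 0.308 CPM per kb) were lowest, and these last 2 overlapped.

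In DMEM plus fatty acids, PHGDH (65.2 ± 20.0) and SHMT2 (55.1 ± 14.9 CPM per kb) were again highest and overlapped. PSAT1, the seventh in RPMI plus B27, was the third, at 31.2 ± 9.92 CPM per kb, with all its libraries below those of SHMT2. MTHFD2 (19.6 ± 8.06 CPM per kb) overlapped both PSAT1 and PSPH (13.0 ± 1.86 CPM per kb). MTHFD1 (9.66), MTHFD1L (9.40), SLC6A9 (7.32), SHMT1 (4.25) and ALDH1L2 (2.67 CPM per kb) followed, each overlapping the next. PSPH, the third gene in RPMI plus B27, was the fifth.

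The pathway around the 10 genes was read from 5 further lists with 63 genes, of which 54 were tested. Over these 54, the median log2 fold change was 0.05, against 0.96 for the 10 genes and 0.01 for all genes tested. The 10 genes and the lists were chosen with earlier results of these data known, so contrasts between them are descriptions and no test. Of the 54, 0 passed upward by edgeR or by DESeq2. By edgeR 2 passed downward, against 172 of all 16107 genes tested (1.36% passed in either direction). By DESeq2 3 passed downward, against 828 of 15790. At an unadjusted p under 0.05 by edgeR, 3 were higher and 4 lower (1240 and 1608 of all 16107 genes). Both edgeR calls were lost when any 1 library was left out or when libraries were scaled by total counts. With the block 1 passed upward and 2 fell (219 and 551 of all 16107 genes). The downward counts by DESeq2 and with the block were thus near the share among all genes. Of the 10 genes, 9 had a positive log2 fold change, and of the 54, 34 did (63.0%, against 51.0% of all genes tested).

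The 2 genes that edgeR called lower belong to the use of glycine and to the methionine cycle. GATM (glycine amidinotransferase, the first enzyme of creatine synthesis) went from 44.0 ± 9.77 to 15.1 ± 4.44 CPM (log2 fold change -1.54 ± 0.26), and MAT1A (a methionine adenosyltransferase of adult liver) from 4.20 ± 1.13 to 1.11 ± 0.254 CPM (-1.91 ± 0.33; SD, n = 3 each). Both had an edgeR adjusted p of 0.0469. Of the other 15 tested genes that use serine or glycine, those with the smallest p were ALAS1 (the first enzyme of haem synthesis, 0.38 ± 0.11), GCLM (a glutathione synthesis subunit, 0.57 ± 0.20) and SPTLC2 (serine palmitoyltransferase, 0.31 ± 0.14), with edgeR adjusted p values of 0.149, 0.204 and 0.314.

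Of the 4 glycine cleavage genes, which break glycine down in mitochondria, 0 passed by edgeR or DESeq2. Only 1, DLD, had an unadjusted p under 0.05 by edgeR, where 17.7% of all genes passed in either direction. The log2 fold changes were 0.50 ± 0.15 for DLD, 0.27 ± 0.15 for AMT, 0.19 ± 0.27 for GCSH and -0.79 ± 0.98 for GLDC. GLDC, the decarboxylase of the system, was at 1.58 ± 2.03 CPM in RPMI plus B27 and 0.901 ± 0.596 CPM in DMEM plus fatty acids. The 15 other folate enzymes ran from -0.30 to 0.87 with a median of 0.00, and 0 passed by edgeR or DESeq2 or had an unadjusted p under 0.05. Their smallest p values included those of MTRR (0.28 ± 0.15), ALDH1L1 (0.87 ± 0.48), the cytosolic relative of ALDH1L2, and FPGS (-0.13 ± 0.11). ALDH1L1 was at 0.797 ± 0.0896 CPM in RPMI plus B27 and 1.44 ± 0.812 CPM in DMEM plus fatty acids.

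Of 18 carriers of serine, glycine and folate, 13 were tested. At an unadjusted p under 0.05 by edgeR 2 were lower (1608 of all 16107 genes), and by DESeq2 1 was lower (828 of 15790). By edgeR 0 passed without the block. SLC1A4, a carrier of serine and other small neutral amino acids, passed with it (log2 fold change 0.74 ± 0.39, edgeR adjusted p 0.372 without and 0.0394 with the block). SFXN1, the mitochondrial serine carrier, had 116.6 ± 10.5 CPM in RPMI plus B27 and 99.8 ± 8.60 CPM in DMEM plus fatty acids (-0.22 ± 0.12, edgeR adjusted p 0.382). SFXN3, its relative, had -1.08 ± 0.31 and the folate receptor FOLR1 -0.95 ± 0.36 (edgeR adjusted p 0.147 and 0.237). Neither of these passed with the block. In the methionine cycle, AHCY (-0.15 ± 0.12), ALDH7A1 (-0.07 ± 0.18) and MAT2B (0.05 ± 0.13) followed MAT1A in order of p, and none of the 3 passed.

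Of 25 other genes known as targets of ATF4 or as ATF4 itself, 18 had a positive log2 fold change (72.0%, against 51.0% of all genes tested), with a median of 0.80. This list was also chosen with earlier results of these data known. Without overlap between media, 13 were higher and 3 lower. Of all 16107 genes 12.8% were higher in this way and 2061 lower, so the 3 lower ones were near the share of all genes. At an unadjusted p under 0.05 by edgeR, 15 were higher and 2 lower (1240 and 1608 of all genes). NUPR1, a stress-induced nuclear protein, was the only 1 that passed by edgeR without the block, from 0.196 ± 0.114 to 4.20 ± 3.13 CPM (4.39 ± 0.73, edgeR adjusted p 0.0427). Its RPMI plus B27 libraries, at 0.301, 0.213 and 0.0746 CPM, were near the floor, so the size of this change is uncertain. In those libraries 3 counts are 0.107 to 0.125 CPM before TMM factors. DESeq2 called 9 higher and 2 lower (390 and 828 of 15790 genes). With the block 6 rose (1.36% of all genes) and 1, ALDH18A1 (an enzyme of proline synthesis, -0.79 ± 0.17), fell (551 of all 16107 genes). TRIB3 (2.49 ± 0.45), PCK2 (the mitochondrial phosphoenolpyruvate carboxykinase, 2.22 ± 0.42) and CHAC1 (a glutathione-degrading enzyme, 1.80 ± 0.34) had edgeR adjusted p values of 0.0520 to 0.0583 without and 0.0131 to 0.0274 with the block. ATF4 itself had 159.4 ± 26.1 CPM in RPMI plus B27 and 155.0 ± 48.7 CPM in DMEM plus fatty acids (-0.04 ± 0.23). The NUPR1 call was lost when any 1 library was left out. Of the 18 proliferation markers 0 passed by DESeq2 or edgeR (smallest edgeR adjusted p 0.513), 0 had an unadjusted p under 0.05, and their median was -0.24.

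**Figure D5:**
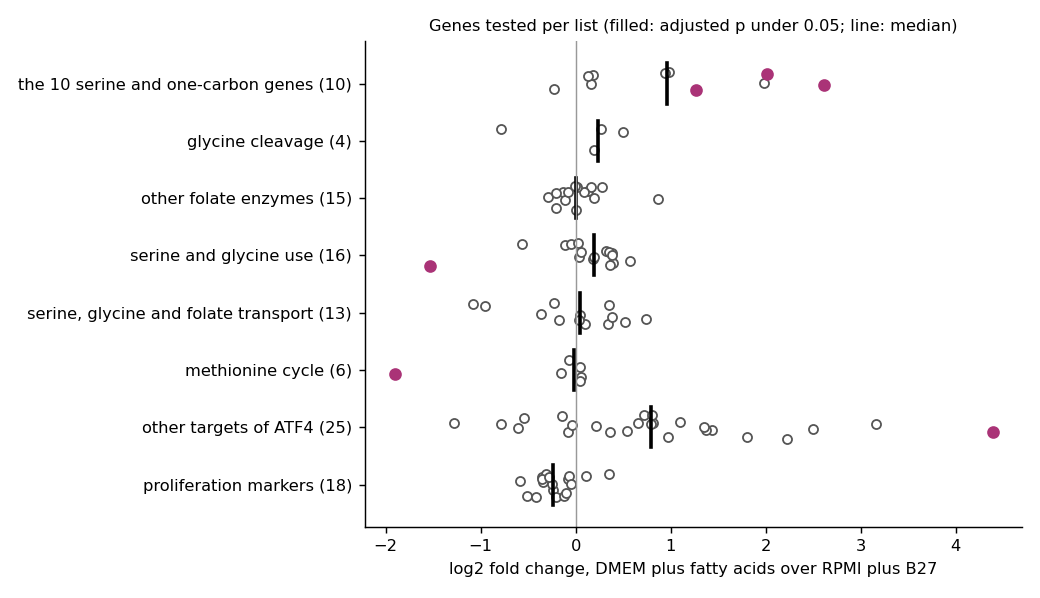
Log2 fold change of every tested gene of the 10 and of the 7 lists around them, 1 point for each gene, with the number tested in parentheses, the median as a line and genes with an adjusted p under 0.05 filled. The medians of the 10 genes (0.96) and of the other ATF4 targets (0.80) lie to the right of those of the 5 pathway lists and of the proliferation markers. The 10 genes and the lists were chosen with earlier results of these data known.

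The profile across libraries was compared with that of the 10018 other tested genes that averaged 10 CPM or more. Profiles were not scaled, so the size of a change counts as well as its pattern. Each gene's log2 CPM was centred on its own mean over the 6 libraries and set against the mean profile of the 10 genes, which was -0.47, -0.59 and -0.39 in RPMI plus B27 and 0.66, 0.13 and 0.65 in DMEM plus fatty acids. Among the 10, SHMT2 was closest to the mean profile, with a root-mean-square difference of 0.19 on the log2 scale, and SLC6A9 farthest, at 0.85. PSAT1 (0.58), SHMT1 and MTHFD1 (0.57 each), MTHFD1L (0.61) and ALDH1L2 (0.66) also lay farther from it than the median of the genes compared. The mean is thus not a profile that all 10 share. The nearest other genes were ACCS (0.11), OSBPL3 (0.14), FMNL2 (0.15), TACC2, SFXN4, REPS2 and JDP2 (0.17 each) and CADPS2 (0.18), against a median of 0.54 over all genes compared.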

How the data were processed

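RNA was measured by sequencing in 6 cultures, and groups and replicate numbers were read from the sample titles. The deposited files hold unnormalized whole-number counts by gene symbol, each for a single library. STAR, HTSeq and the build hg38 are named in the submitters' processing notes, and the library kit was a stranded mRNA kit according to the labels. The annotation and the strand setting are not given in the sources used here, so genes that overlap another or share reads with a copy are uncertain. Rows that name no gene held 12.8% to 15.6% of each file and were left out.

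The tests ran in edgeR 4.0.16 under R 4.3.3 (filterByExpr with a minimum count of 10 and a minimum total of 15, TMM, quasi-likelihood test, no covariate), adjusted by Benjamini-Hochberg over 16107 genes at 0.05. SEs are those implied by the F statistic. Same-numbered libraries of the 2 media correlated in their deviations at 0.31, 0.43 and 0.37, and others at -0.24 to -0.14. Deviations sum to 0 within a medium, so these correlations are not independent of one another. The replicate number was therefore also fitted as a block. Shares were compared by exact two-sided permutation tests. Alternatives were DESeq2 1.42.0, total-count scaling, other filters and leaving out libraries. The test code was tested on simulated data. The members and lists were chosen with earlier results of these data known. Named genes are the 10, the called genes and up to 4 with the smallest p of each list, and the 8 with the most similar profile. Outside this rule, ATF4, ALDH18A1 and single cell type markers were named after their values were seen. Of the genes this rule selects, 1 is not reported here.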

Additional observations from a re-analysis of the deposited data

How the results depend on the processing

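Blocking by replicate number called 770 genes in place of 219, 5 of the 10 members in place of 3, and 7 other ATF4 targets in place of 1, while the pathway lists had 3 in place of 2. It changed the calls of PHGDH and ALDH1L2 and of no other member. The DESeq2 Wald test called 1218 genes, 6 members (MTHFD2 in addition to those of the block) and 11 ATF4 targets. Scaling by total counts moved the median of all genes from 0.01 to 0.12 and the lower share of calls from 78.5% to 63.4% (202 genes), and left 3 members, 0 pathway genes and 4 ATF4 targets. Without a filter there were 539 genes, 4 members (ALDH1L2 in addition) and 7 ATF4 targets. With at least 10 counts in every library there were 119 genes, 2 members (SHMT2 lost), 0 pathway genes and 0 ATF4 targets. Leaving out 1 library gave 3 to 131 genes, 0 to 1 members, 0 pathway genes and 0 ATF4 targets. The fits without a library have fewer samples by construction, and for the other settings the cause was not tested. SHMT1 was -0.13 without DMEM plus fatty acids replicate 3 and up to 0.38 in the other such fits, and MTHFD1 was -0.11 without that library, -0.02 without RPMI plus B27 replicate 1 and up to 0.32 otherwise. The other 8 members kept their direction in all 11 alternatives. Over leave-one-out, the compartment ratio differed by 0.34 to 1.03, the SHMT2 share by 4.70 to 7.36 and the MTHFD2 share by 3.65 to 17.8 percentage points. With single enzymes left out, the ratio differed by 0.48 (SHMT2) to 1.05 (MTHFD1L). The lowest count of a member in a library was 88 (ALDH1L2), and with 3 libraries in each medium no exact test could give a p under 0.1.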
